A study of Drosophila melanogaster with 64 samples.

Results

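A set of 49 genes of the secretory pathway and of the unfolded protein response were looked up by symbol, current or older, and 47 of them were matched to the 17752 genes of the count table. The genes fell into 8 classes by role: the signal recognition particle and its receptor, the translocon, signal peptidase, folding in the endoplasmic reticulum (ER), COPII and ER exit, COPI and retrieval, the unfolded protein response, and nucleotide sugar transport with the single gene Efr. Pdi and Tango1 were not found under their current identifiers, could be there under older ones, and were not analysed here, and Spase18-21 was found under the current symbol twr.

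The measurement was RNA-seq of the lower female reproductive tract (FRT) of Drosophila melanogaster, strain LHM, in females 3 to 8 days old, with each library made from tissue pooled over many females. Mated females were dissected 6 h or 24 h after mating, against unmated females. The glandular tissues were the spermathecae (4 libraries at 6 h, 4 at 24 h, 4 unmated) and parovaria (3, 4 and 4 in the same order). The epithelial tissues were the bursa (4, 4 and 4), the oviduct (2, 3 and 3) and the seminal receptacle (4, 3 and 3). The fat body around the glands gave 3 libraries at 6 h, 2 at 24 h and 4 unmated, and 2 libraries were from unmated whole females without the lower FRT, which makes 64 libraries in 19 groups. They were sequenced in 2 runs, 26 libraries in run 1 and 38 in run 2, at 12177864 to 26860149 counts per library (median 24545411.5). As a check of the labels, the 15 muscle markers summed to 1062 to 2240 CPM (counts scaled to the library's total count) in unmated glands, against 16063 to 50939 CPM in unmated epithelia. The 11 fat body markers summed to 46086 to 98666 CPM in the fat body libraries. In FRT libraries they summed to 5848 to 32007 CPM unmated, 2943 to 44091 CPM at 6 h and 3389 to 34782 CPM at 24 h. The highest FRT library thus came near the lowest fat body library. Marker sums below are on the same scale.

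Proteins that a cell will secrete enter the ER while they are made. The signal recognition particle brings the ribosome to the Sec61 channel, signal peptidase removes the signal sequence, and chaperones and disulfide isomerases fold the product. COPII vesicles carry it towards the Golgi and COPI vesicles bring escaped ER residents back. When unfolded protein builds up, the sensors Ire1 and PEK (PERK in mammals) act through the transcription factors Xbp1 and crc (ATF4 in mammals). Secretory cells such as those of the spermathecae are known for an extensive ER.

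Levels of the members below are CPM scaled by trimmed mean of M values (TMM) over all 64 libraries. Tests were made with the quasi-likelihood test of edgeR, and a gene was called at a Bonferroni-adjusted p of 0.01 or under, with Benjamini-Hochberg (BH) adjusted p of 0.05 or under as a second, looser rule. Both were adjusted over all genes tested in a comparison. Fold changes are on the log2 scale and followed by their standard error (SE).

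In unmated females, the secretory machinery was at a higher level in the glands than in the epithelia. Of the 47 genes, 36 were called higher in the 8 gland libraries than in the 10 epithelial libraries and 0 lower, where 12.5% of the 8452 genes tested were called higher and 16.3% lower. By the BH rule 45 were higher and 1 lower (background 33.5% and 38.1%). The median log2 fold change was 1.70, which is 3.24-fold, beside -0.0554 over all genes. For 36 of the 47 genes every gland library lay above every epithelial library, which held for 9.24% of all genes, and for 0 genes did every gland library lie below (11.0% of all genes). In bulk tissue, fewer cells of a type and less RNA per cell cannot be told apart. The 15 muscle markers were all called lower in glands, and of the fat body markers 8 of the 9 tested were higher by the BH rule (median 1.07), with sums of 11411 to 32007 CPM in glands, against 5848 to 30581 CPM in epithelia. The part of either in these differences was not tested.

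The difference depended on scaling in size. On CPM from total counts alone, the median log2 ratio of glands to epithelia was 1.01 for the 47 genes and -0.717 for all genes, whose median was -0.0735 on the TMM scale. On CPM from total counts 42 of the 47 genes still had the higher mean in glands. There 21 genes had every gland library above every epithelial one (2.0% of all genes). For 1 gene, crc, every gland library was below (log2 ratio -0.492), as for 25.2% of all genes. Both sequencing runs gave a like value, with medians of 1.75 in run 1 and 1.74 in run 2 and the same sign in both for 46 higher genes and 1 lower gene.

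**Figure D1:**
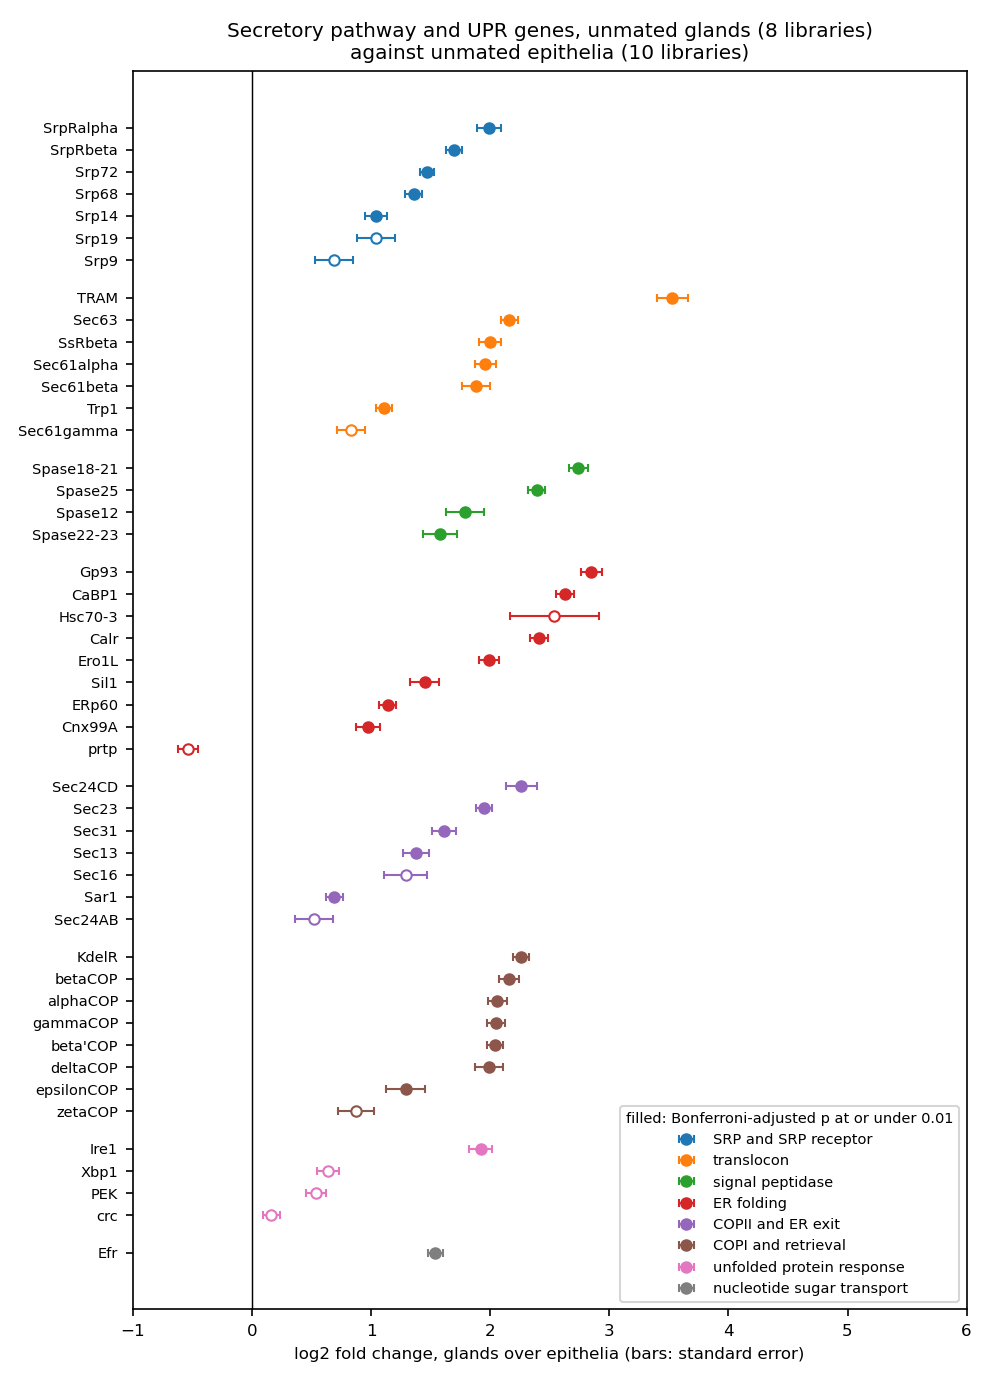
Log2 fold change of each of the 47 genes between unmated glands and unmated epithelia, by class, with horizontal bars for 1 SE and filled points for genes called at a Bonferroni-adjusted p of 0.01 or under. The 36 filled points all lie right of 0, and TRAM at 3.53 lies farthest right.

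The signal recognition particle and its receptor had 5 of 7 genes called higher, with a median log2 fold change of 1.36. Srp72, a subunit of the particle, had 62.5, 70.1 and 74.6 CPM (lowest, median, highest) in gland libraries, against 17.5, 25.3 and 33.4 CPM in epithelial libraries. The groups did not overlap (1.47 ± 0.059, adjusted p = 1.48e-10, edgeR with Bonferroni adjustment). SrpRalpha, the receptor subunit that binds the particle, had the largest difference of the class at 1.99 ± 0.10. Srp9 (0.69) and Srp19 (1.04) were higher by the BH rule only, and their libraries overlapped.

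The translocon genes had 6 of 7 called higher, with a median of 1.96. TRAM, which assists the passage of nascent chains through the channel, had 311, 419 and 585 CPM in glands, against 19.6, 35.4 and 71.0 CPM in epithelia. The lowest gland library was thus more than 4 times the highest epithelial one, and the fitted difference was 11.6-fold (3.53 ± 0.13, edgeR with Bonferroni-adjusted p = 2.49e-11). TRAM lies on the X chromosome at 935232 to 937822 (release 6 assembly). Sec63, a partner of the channel that recruits the chaperone BiP, had 361, 407 and 489 CPM in glands and 69.5, 93.0 and 114 CPM in epithelia (2.16 ± 0.071). The antisense RNA gene CR45835 covers 60.7% of the Sec63 exon bases, and without strand information the reads of the 2 genes cannot be told apart. Sec61gamma, the smallest channel subunit, was the only member of the class not called (0.83 ± 0.12, Bonferroni-adjusted p = 0.039), and its gland range of 67.9 to 111 CPM overlapped the epithelial range of 23.4 to 94.7 CPM.

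All 4 genes of signal peptidase were called higher, with a median of 2.09. Spase18-21, the catalytic subunit, had 303, 402 and 473 CPM in glands, against 36.5, 49.04 and 119 CPM in epithelia (2.74 ± 0.078, Bonferroni-adjusted p = 6.76e-13, edgeR), and the groups did not overlap. The neighbouring gene agt covers 44.3% of its exon bases on the opposite strand. Opposite-strand CG2006 covers all of the Spase12 exon bases and other genes cover 30.6% of those of Spase22-23, so that the counts of these genes are uncertain. Spase25, a non-catalytic subunit, followed with 2.39 ± 0.071. The epithelial libraries that came closest to the glands for both were those of the seminal receptacle.

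Among the 9 folding genes, 7 were called higher and the median was 1.99. Gp93, the GRP94 chaperone of the ER, was at 2.85 ± 0.091, and Calr, the lectin chaperone calreticulin, at 2.41 ± 0.078. CaBP1, a protein disulfide isomerase, had 226, 262 and 307 CPM in glands, against 31.4, 35.6 and 72.9 CPM in epithelia (2.63 ± 0.076). No gland library of CaBP1 came within 3 times the highest epithelial library. Ero1L, the oxidase that recharges disulfide isomerases, was at 1.99 ± 0.081. Sil1, known in yeast and mammals as a nucleotide exchange factor of BiP, was at 1.45 ± 0.12 but at a low level, with 8.24, 10.6 and 11.4 CPM in glands, against 2.67, 3.79 and 4.61 CPM in epithelia.

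Hsc70-3, the fly BiP, was called by the BH rule only, and its libraries spread widely. It had 1202, 313, 1226 and 1186 CPM in the spermathecae and 1222, 348, 1445 and 1499.9 CPM in the parovaria. The epithelial values were 29.7, 118, 125 and 119 CPM in the bursa, 232, 245 and 226 CPM in the oviduct and 95.0, 285 and 415 CPM in the seminal receptacle. A single library of each gland, both from run 1, was low enough to overlap the epithelia, while the other 6 gland libraries lay above all 10 epithelial ones. The log2 fold change was 2.54 ± 0.37 (Bonferroni-adjusted p = 0.0285, BH-adjusted p = 1.06e-05, edgeR). Leaving out the low spermathecae library (replicate 2) or the low parovaria library (replicate 2) each brought it to 2.69 and past the Bonferroni threshold.

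The single gene lower in glands was prtp, a thioredoxin-domain protein of the ER. It had 32.1, 35.4 and 51.2 CPM in glands and 43.4, 51.0 and 75.0 CPM in epithelia, with overlapping ranges (-0.54 ± 0.083, BH-adjusted p = 2.05e-05, Bonferroni-adjusted p = 0.0597, edgeR). Without replicate 2 of the spermathecae it passed the Bonferroni threshold, at -0.60.

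The vesicle coat and retrieval genes were mostly called higher as well. COPII and ER exit had 5 of 7 genes called higher (median 1.38), led by Sec24CD, a cargo-binding coat subunit, at 2.26 ± 0.13. Sec23, the inner coat subunit that acts on the GTPase Sar1, had 248, 308 and 445 CPM in glands, against 69.2, 79.2 and 107 CPM in epithelia (1.95 ± 0.069), with no overlap. The second Sec24 gene, Sec24AB, was at 0.52 ± 0.16 with overlapping libraries, and Sec16, the organiser of ER exit sites, missed the Bonferroni threshold at 1.29 ± 0.18 (Bonferroni-adjusted p = 0.0124, edgeR) although its groups did not overlap. COPI and retrieval had 7 of 8 called higher (median 2.05), zetaCOP being the exception (0.87 ± 0.15). KdelR, the receptor that returns ER residents from the Golgi, had 389, 462 and 520 CPM in glands, against 66.6, 83.7 and 148 CPM in epithelia (2.26 ± 0.069). Every gland library of KdelR was above every epithelial one.

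The 4 unfolded protein response genes had a smaller median, 0.59, and only 1 of them was called. Ire1, the sensor that splices Xbp1 mRNA, had 81.7, 102 and 134 CPM in glands, against 22.4, 27.1 and 37.7 CPM in epithelia (1.92 ± 0.10, Bonferroni-adjusted p = 1.65e-08, edgeR), and the groups did not overlap. PEK, the kinase sensor, had 17.2, 21.2 and 22.3 CPM in glands, against 10.3, 14.0 and 19.9 CPM in epithelia (0.54 ± 0.085, Bonferroni-adjusted p = 0.0671). Xbp1 had 635, 740.3 and 1107 CPM in glands, against 379.6, 497 and 661 CPM in epithelia (0.64 ± 0.095, Bonferroni-adjusted p = 0.0349). Both PEK and Xbp1 were higher by the BH rule, with overlapping libraries. Counts per gene do not separate spliced from unspliced Xbp1. The transcription factor crc had 639, 882 and 1025 CPM in glands, against 631, 753 and 892 CPM in epithelia (0.16 ± 0.073, edgeR with BH-adjusted p = 0.054), and without the parovaria its value was -0.0674. On CPM from total counts its log2 ratio was -0.492, with every gland library below every epithelial one. The same-strand gene CG46314 covers 73.5% of crc exon bases, so its counts are uncertain.

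Efr, a transporter of GDP-fucose and other nucleotide sugars in the fly ER, completed the set with 68.3, 88.2 and 102 CPM in glands, against 22.3, 31.3 and 38.5 CPM in epithelia (1.54 ± 0.065, edgeR, Bonferroni-adjusted p = 3.38e-10). Its groups did not overlap.

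**Figure D2:**
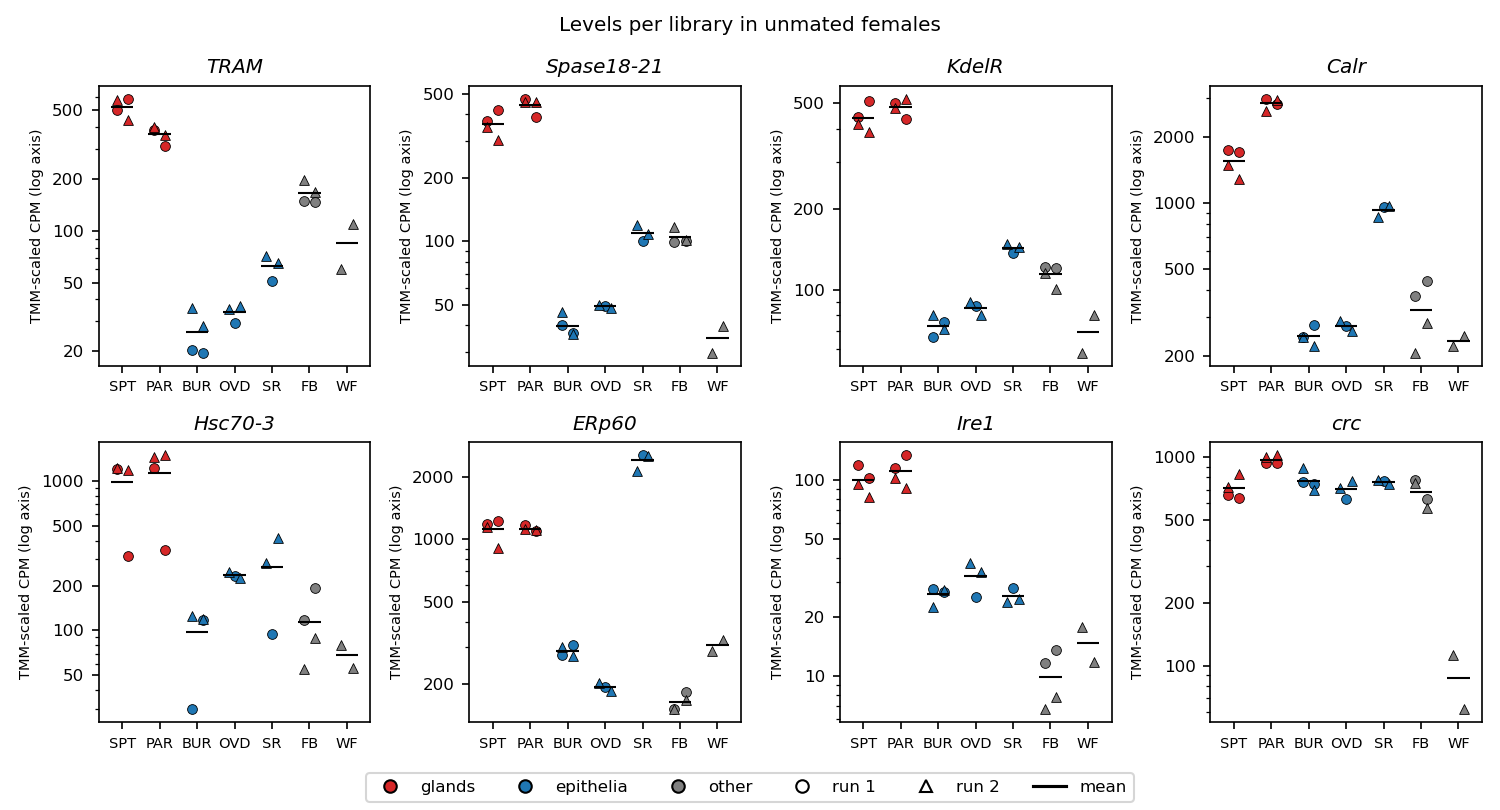
TMM-scaled CPM (log axis) of 8 genes in every unmated library by tissue, with circles for run 1, triangles for run 2 and a line at the mean of each tissue. The spermathecae and parovaria lie above the bursa and oviduct for TRAM, Spase18-21, KdelR, Calr, ERp60 and Ire1, the seminal receptacle is highest for ERp60, and crc is at a like level in all FRT tissues.

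The genes that are not in the set but act in the same pathway were described by lists. Of all 8452 genes tested, 12.5% were called higher in glands and 16.3% lower. All 6 tested genes of the oligosaccharyltransferase, which adds N-glycans in the ER, were called higher in glands (median 2.32; Stt3B highest at 2.82 and Stt3A lowest at 1.56). Of the p24 cargo receptors 6 of 7 were called higher (median 1.77), and of the SNAREs, tethers and GTPases between ER and Golgi 14 of 17 (median 1.56), from ergic53, a lectin cargo receptor, at 2.40 to Rab1 at 0.07. ER-associated degradation had 7 of 9 called higher with a smaller median of 1.00, and the other stress sensors and targets 4 of 7 with a median of 0.98. The highest of these was P58IPK, a co-chaperone of BiP, at 2.24, and the lowest PPP1R15, a phosphatase subunit of the stress response, at -0.45.

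Summed over the 47 genes, the unmated parovaria had 15147 ± 1120.1 CPM (SD, n = 4), the spermathecae 14923 ± 909 CPM (n = 4), the seminal receptacle 8094 ± 293 CPM (n = 3), the fat body 6808 ± 235 CPM (n = 4), the oviduct 4279 ± 270.0 CPM (n = 3), the bursa 4079 ± 378 CPM (n = 4) and the whole female 3837 ± 719 CPM (n = 2). The order of the parovaria and spermathecae, and that of the oviduct, bursa and whole female, differed by less than their spread. The sum of the 4 unfolded protein response genes had a narrower range in the FRT, 1764 ± 79.6 CPM in the spermathecae and 1757 ± 42.5 CPM in the parovaria against 1212 ± 143 CPM in the oviduct, which had the lowest sum. That sum was mostly crc, whose counts are uncertain, and Xbp1, with gland medians of 882 and 740 CPM. Ire1, 3.78-fold higher in glands, had a gland median of 102 CPM and PEK one of 21.2 CPM.

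Within the glands, spermathecae and parovaria had different levels of a few genes. Of the 47 genes, 1 was called higher and 1 lower in the spermathecae (background 3.77% and 2.76% of 8452 genes), and by the BH rule 10 were higher and 7 lower (19.5% and 17.4%), which is near the background. SsRbeta, a subunit of the signal sequence receptor beside the channel, had 263, 287, 219.9 and 208 CPM in the spermathecae, against 132, 101, 98.8 and 96.4 CPM in the parovaria. The difference was 2.27-fold (1.18 ± 0.14, Bonferroni-adjusted p = 0.00143, edgeR), with no overlap. Calr had 1736, 1704, 1477 and 1283 CPM in the spermathecae, against 2977, 2817, 2604 and 2929 CPM in the parovaria, again with no overlap (-0.88 ± 0.11, Bonferroni-adjusted p = 0.00588).

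Neither call held on leaving out each of the 8 libraries. Leaving out 1 library moved the adjusted p of Calr to between 0.00819 and 0.13 and the call was lost in 7 of 8 cases (all except without spermathecae replicate 1), with log2 fold changes of -0.95 to -0.78. For SsRbeta the adjusted p reached 0.0138 and the call was lost without parovaria replicate 2, 3 or 4, at 1.15 to 1.17. Each run alone, with 2 libraries per gland, called neither. Among the genes of the BH rule, Gp93 (0.64), Xbp1 (0.51) and Sec23 (0.49) were higher in spermathecae and crc (-0.46) and Sec24AB (-0.73) lower. The 11 fat body markers summed to 11411 to 21084 CPM in the spermathecae, against 15566 to 32007 CPM in the parovaria, and the part of that in these values was not tested.

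Within the epithelia, the seminal receptacle stood nearest to the glands for several folding genes. This comparison of the receptacle with the bursa and oviduct was added after the levels had been seen. There were 7 genes called higher and 0 lower in the 3 receptacle libraries than in the 7 others (background 5.21% and 2.33%), and by the BH rule 25 were higher and 2 lower (18.6% and 17.8%). For 22 of the 47 genes every receptacle library lay above the other epithelia (12.5% of all genes), and for Efr alone below (8.7%). The median was 0.42 beside -0.0554 over all genes.

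ERp60, a protein disulfide isomerase of glycoprotein folding, had 2568, 2159 and 2551 CPM in the seminal receptacle, against 276, 307, 303 and 273 CPM in the bursa and 193, 200.3 and 184 CPM in the oviduct. The receptacle was 10.2-fold above the other epithelia (3.35 ± 0.10, Bonferroni-adjusted p = 1.35e-12, edgeR). It was also above the spermathecae with 1184, 1236, 1145 and 914 CPM and the parovaria with 1169, 1099, 1129 and 1112 CPM, so the gland and epithelial ranges of ERp60 overlapped although it was called (1.14 ± 0.072). Calr followed with 951, 863 and 963 CPM in the receptacle, against 222 to 288 CPM in the other epithelia (1.82 ± 0.10), and no library overlapped. The other calls were Spase25 (1.29), Spase18-21 (1.28), CaBP1 (0.99), Gp93 (0.98) and KdelR (0.84). Gp93 lost the call on leaving out bursa replicate 2, any of the 3 oviduct libraries, or receptacle replicate 2 or 3 (0.87 to 1.01), and KdelR on leaving out receptacle replicate 2 or 3 (0.82 and 0.83). For the receptacle these are numbers of the count table's columns, which the sample titles number otherwise. Efr (-0.57) and PEK (-0.36) were lower in the receptacle by the BH rule. The fat body markers summed to 19075 to 30581 CPM in the receptacle, against 5848 to 16647 CPM in the bursa and oviduct. The muscle markers summed to 16063 to 22566 CPM in the receptacle, against 25136 to 50939 CPM in the bursa and oviduct, and 13 of 15 were lower by the BH rule (median -0.88). The part of either list was not tested.

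After mating, few of these genes were called in any tissue at the Bonferroni threshold, and they were Efr in the spermathecae and Sil1 in the fat body. The comparisons of 6 h and of 24 h with unmated females share the unmated libraries of each tissue. DESeq2 with the same Bonferroni threshold gave other counts of members, namely 5 in the fat body, 6 for bursa, 3 for oviduct, 0 in the parovaria, 3 in the spermathecae and 2 in the seminal receptacle at 6 h, and at 24 h against unmated females 1 in the spermathecae and 0 elsewhere. The share of all genes called by DESeq2 was not worked out, so neither these nor the other DESeq2 counts here have a background. The counts of members with an unadjusted p under 0.05 given below have no background either. They are no result about the set.

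Efr fell in the spermathecae at both times. Its levels were 77.6, 81.9, 86.7 and 68.3 CPM in unmated females, 24.7, 30.2, 24.1 and 21.2 CPM at 6 h and 26.7, 39.0, 26.5 and 26.999 CPM at 24 h. Every library of mated females was below every unmated library. The change was -1.65 ± 0.16 at 6 h (0.32-fold, Bonferroni-adjusted p = 0.00124, edgeR, background 0.131% lower and 0.157% higher) and -1.39 ± 0.16 at 24 h (0.381-fold, adjusted p = 0.00721). At 24 h Efr was the 1 gene called lower among the 7624 tested (0.0131%), and 0.0525% were called higher.

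The call at 6 h was lost without replicate 1, 3 or 4 of the 6 h spermathecae (adjusted p up to 0.0132). The call at 24 h held in 1 of 8 cases, without replicate 2 of the 24 h libraries, with adjusted p up to 0.057 in the other 7. The change itself moved little, from -1.70 to -1.59 at 6 h and from -1.50 to -1.34 at 24 h, and the largest BH-adjusted p was 0.000824 at 6 h and 0.0114 at 24 h. Efr lies on the X chromosome at 6219957 to 6222719, with no other gene over its exons.

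In the parovaria Efr had 102, 90.2, 89.6 and 93.9 CPM unmated, 109.9, 79.6 and 83.5 CPM at 6 h and 75.6, 113, 79.4 and 61.8 CPM at 24 h. These groups overlapped at each time (-0.11 ± 0.19 at 6 h and -0.20 ± 0.18 at 24 h). The difference in change between the 2 glands was not tested. In the fat body Efr had 59.5, 61.4, 51.6 and 54.2 CPM unmated, 20.1, 28.6 and 24.1 CPM at 6 h and 28.9 and 19.2 CPM at 24 h, with every mated library below every unmated one. The fall at 6 h passed the BH rule (-1.17 ± 0.20, adjusted p = 0.0323, edgeR), and the value at 24 h was -1.15 ± 0.24 (BH-adjusted p = 0.173). In the bursa, oviduct and seminal receptacle the change at 6 h was -0.07, -0.12 and -0.16, each within 1 SE of 0.

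Tested against each other, the changes of Efr differed between glands and epithelia by -0.71 ± 0.15 at 6 h (BH-adjusted p = 0.00159, edgeR) and by -0.63 ± 0.14 at 24 h (BH-adjusted p = 0.0481). Of the 8706 genes in these tests, 3.22% were called lower by that rule at 6 h and 0.126% at 24 h, where 0.0345% were higher. Within the glands, the fall was that of the spermathecae given above, and the parovaria had -0.11 at 6 h and -0.20 at 24 h. The fat body markers in the spermathecae summed to 11411 to 21084 CPM unmated, 6188 to 13281 CPM at 6 h and 12908 to 21123 CPM at 24 h. Their part in the change of Efr was not tested.

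**Figure D3:**
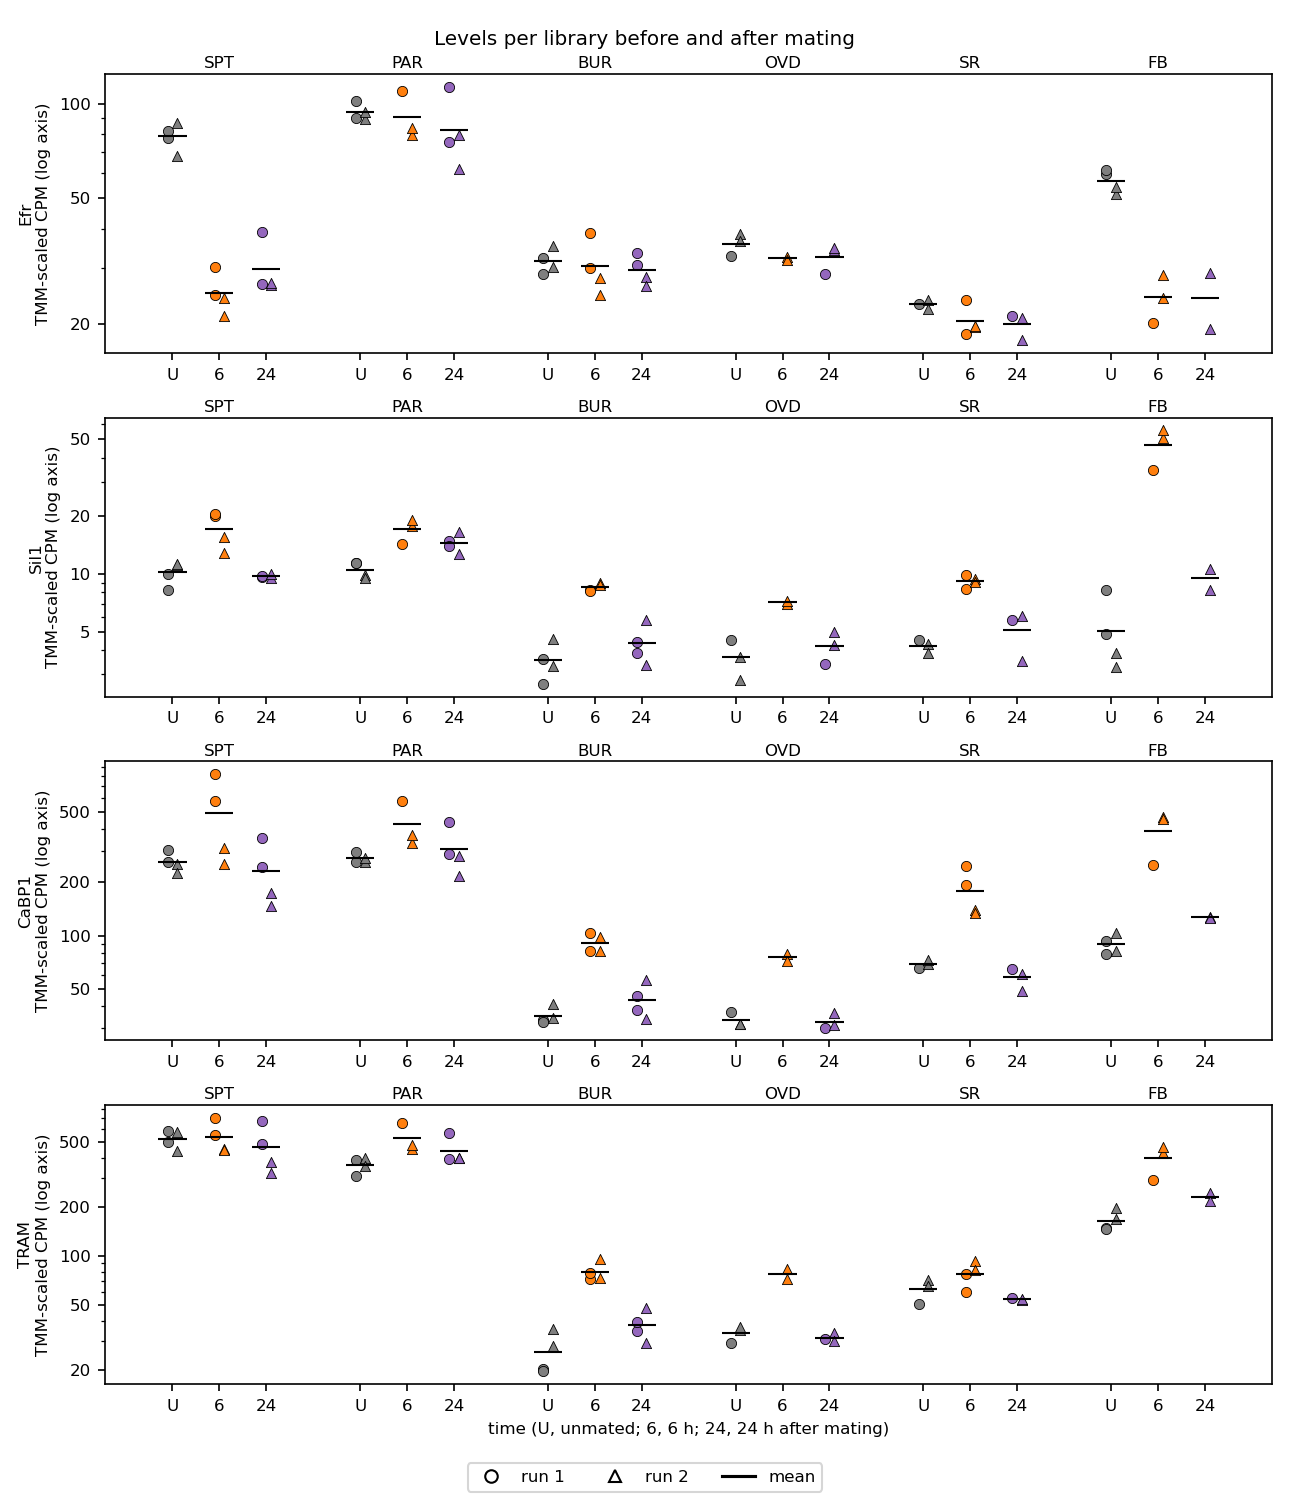
TMM-scaled CPM of Efr, Sil1, CaBP1 and TRAM in every library of 6 tissues in unmated females and at 6 h and 24 h after mating. Efr is low at both mated times in the spermathecae and the fat body, and Sil1 is high at 6 h in the fat body at 34.5 to 55.6 CPM.

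Sil1 rose in the fat body at 6 h. Its levels were 4.86, 8.20, 3.86 and 3.28 CPM in unmated females, 34.5, 50.6 and 55.6 CPM at 6 h and 8.29 and 10.6 CPM at 24 h. Every 6 h library was more than 4 times the highest unmated library. The change at 6 h was 9.55-fold (3.26 ± 0.32, Bonferroni-adjusted p = 0.00919, edgeR), and Sil1 was the 1 gene called among the 5677 tested in the fat body at 6 h (0.0176%). The call was lost without 6 h replicate 2 or 3, by the count table's column numbers, or unmated replicate 1, 3 or 4, with adjusted p up to 0.0986 and changes of 3.11 to 3.23. Sil1 lies at 25233636 to 25235529 on chromosome arm 3R.

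In the fat body at 6 h, 5 of the 47 genes rose and 1 fell by the BH rule (background 1.57% and 0.546%). Besides Sil1, CaBP1 had 250.1, 471 and 454 CPM at 6 h, against 79.0, 93.2, 104 and 81.6 CPM unmated (2.17 ± 0.25, BH-adjusted p = 0.00574, edgeR). Gp93 (1.37), TRAM (1.31) and alphaCOP, a coat subunit of COPI vesicles (0.83), were the others. For 19 genes every 6 h library was above every unmated one and for 2 below, where 6.68% and 10.9% of all genes were. The median was 0.77 beside 0.051 for all genes. Run 1, which had 1 library at 6 h, and run 2 both gave a positive value for 42 of the 47 genes (medians 0.69 and 0.75). The share of all genes that were positive in both runs is not given here. At 24 h against 6 h, no gene at all (0.0%) was called by either rule of edgeR in the fat body. There 22 members had an unadjusted p under 0.05 and DESeq2 called 1, both without a background. The levels of CaBP1 were then 128 and 127 CPM. At 24 h against unmated females there was likewise no call by either rule (0.0% of all genes), with 6 members under an unadjusted p of 0.05. Both 24 h libraries were from run 2, while the 6 h and the unmated libraries came from both runs, so time and run are partly mixed here.

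Ire1 and PEK were not called in the fat body. At 6 h Ire1 had 29.4, 10.4 and 14.1 CPM, against 11.6, 13.5, 6.76 and 7.82 CPM unmated, and the groups overlapped (0.95 ± 0.38, BH-adjusted p = 0.218). PEK was at 1.27 ± 0.51 (BH-adjusted p = 0.218) and Xbp1 at 0.03 ± 0.26.

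In the bursa at 6 h, 0 of the 47 genes were called at the Bonferroni threshold (background 1.03% higher and 0.125% lower), but 19 rose and 1 fell by the BH rule (13.9% and 11.5%). An unadjusted p under 0.05, for which there is no background, was found for 29. TRAM had 72.5, 78.4, 95.8 and 73.3 CPM at 6 h, against 20.3, 19.6, 35.6 and 27.9 CPM unmated (1.63 ± 0.23, BH-adjusted p = 0.000475, edgeR). All 6 h libraries were above all unmated ones, and so were those of CaBP1 with 81.5, 103, 98.4 and 81.3 CPM at 6 h, against 33.4, 32.5, 40.9 and 34.1 CPM unmated (1.36 ± 0.18, BH-adjusted p = 0.000328). The translocon had Sec61gamma (1.55), Sec61beta (1.35), SsRbeta (1.11), Sec61alpha (0.77) and Sec63 (0.52) among the rises, and the signal recognition particle and its receptor 5 of 7 genes. Sil1 had 8.25, 8.14, 8.94 and 8.77 CPM at 6 h, against 2.67, 3.61, 4.61 and 3.33 CPM unmated (1.26 ± 0.21), with no overlap.

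The gene that fell in the bursa was Ire1, with 21.3, 17.7, 12.8 and 14.7 CPM at 6 h, against 27.8, 26.8, 22.4 and 27.4 CPM unmated (-0.66 ± 0.22, BH-adjusted p = 0.0487, edgeR). Its 4 mated libraries were below its 4 unmated ones, and Ire1 was the 1 member of the 47 of which this held (11.7% of all genes). For 18 members every 6 h library was above (13.7% of all genes). Xbp1 had 648, 755, 745 and 797 CPM at 6 h, against 451, 443, 661 and 599 CPM unmated, with overlapping groups (0.45 ± 0.19, BH-adjusted p = 0.0957).

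At 24 h no member was called in the bursa against unmated females by either rule (3 had an unadjusted p under 0.05, and 0.676% of all genes were higher and 0.0626% lower by the BH rule). Against 6 h, 0 rose and 11 fell at 24 h by the BH rule (background 5.22% and 8.82%). TRAM was at 34.5, 39.6, 47.7 and 29.2 CPM at 24 h (-1.10 ± 0.23 against 6 h) and CaBP1 at 38.0, 45.4, 56.1 and 33.6 CPM (-1.08 ± 0.18). The 24 h libraries of both lay below all 6 h libraries. With the replicate number as a block, 19 members fell and 0 rose (background 13.1% and 11.3%), the 11 among them. The labels give no pairing by that number. Same-numbered libraries of these times deviated together (r of 0.188 to 0.767), but libraries of the same run with other numbers did so too (0.167 to 0.665). A shared number and a shared run cannot be told apart here.

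**Figure D4:**
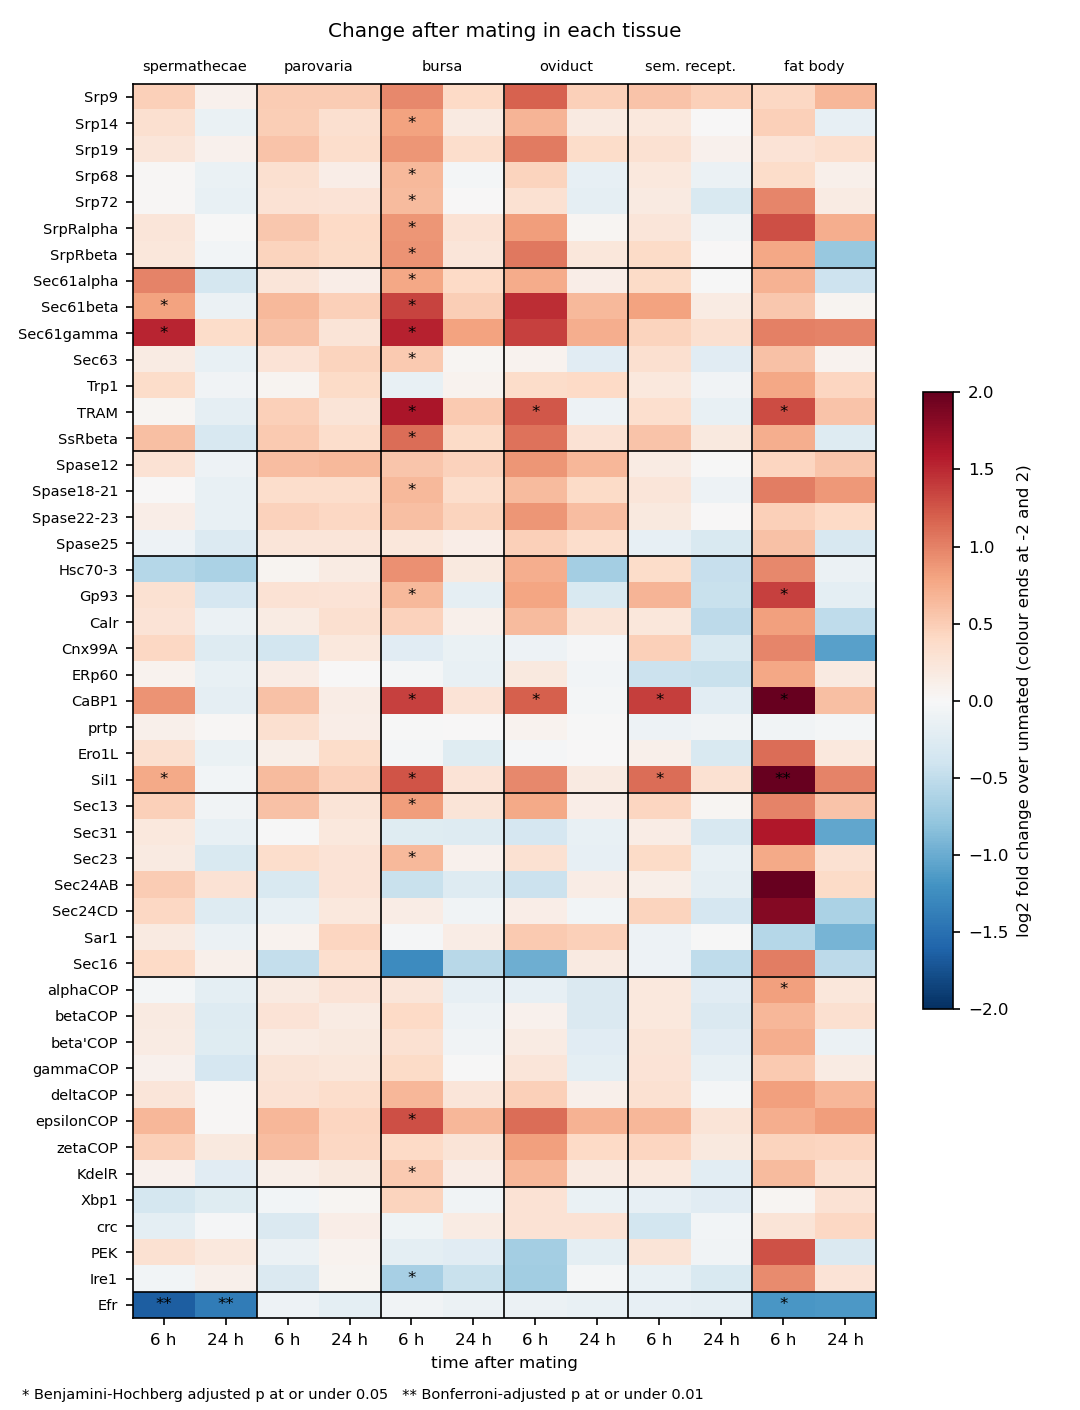
Log2 fold change of the 47 genes at 6 h and 24 h against unmated females in the 5 FRT tissues and the fat body, with colours ending at -2 and 2, 1 asterisk for a BH-adjusted p of 0.05 or under and 2 for a Bonferroni-adjusted p of 0.01 or under. By the BH rule, rises at 6 h are most numerous for bursa (19 genes), where 13.9% of all genes tested rose. For fat body 5 genes rose by that rule, with 1.57% of all genes. Counted by sign alone, 34 of the 47 values at 6 h are positive for bursa, against 37 to 44 for the other tissues. The only 2-asterisk cells are Efr in the spermathecae and Sil1 in the fat body.

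The values in the bursa at 6 h moved with gene length. Over the 7922 genes of the bursa comparison with a length, exon length and log2 fold change had a Spearman correlation of -0.50, and over the 47 members it was -0.59 (-0.29 in run 1 and -0.72 in run 2). The 8 members under 1000 exon bases had a median of 0.93 and the 7 members of 4000 bases or more one of -0.24. Genes are not independent replicates, and the cause of this relation was not tested. Set against genes of like length, the members' median was 0.50 instead of 0.53, with 36 of 47 above. TRAM was then at 1.72, CaBP1 at 1.27 and Sil1 at 1.20, while Sec61gamma was at 1.09 instead of 1.55 and Ire1 at -0.26 instead of -0.66. At 6 h the correlation over all genes was -0.64 in the oviduct, -0.62 in the parovaria and -0.30 in the seminal receptacle, while the runs differed in sign in the spermathecae (0.25 in run 1 and -0.49 in run 2). In the fat body it was positive, at 0.31 (0.53 in run 1 and 0.16 in run 2). Between unmated glands and epithelia it was -0.028, and the members' median against genes of like length was 1.77.

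**Figure D5:**
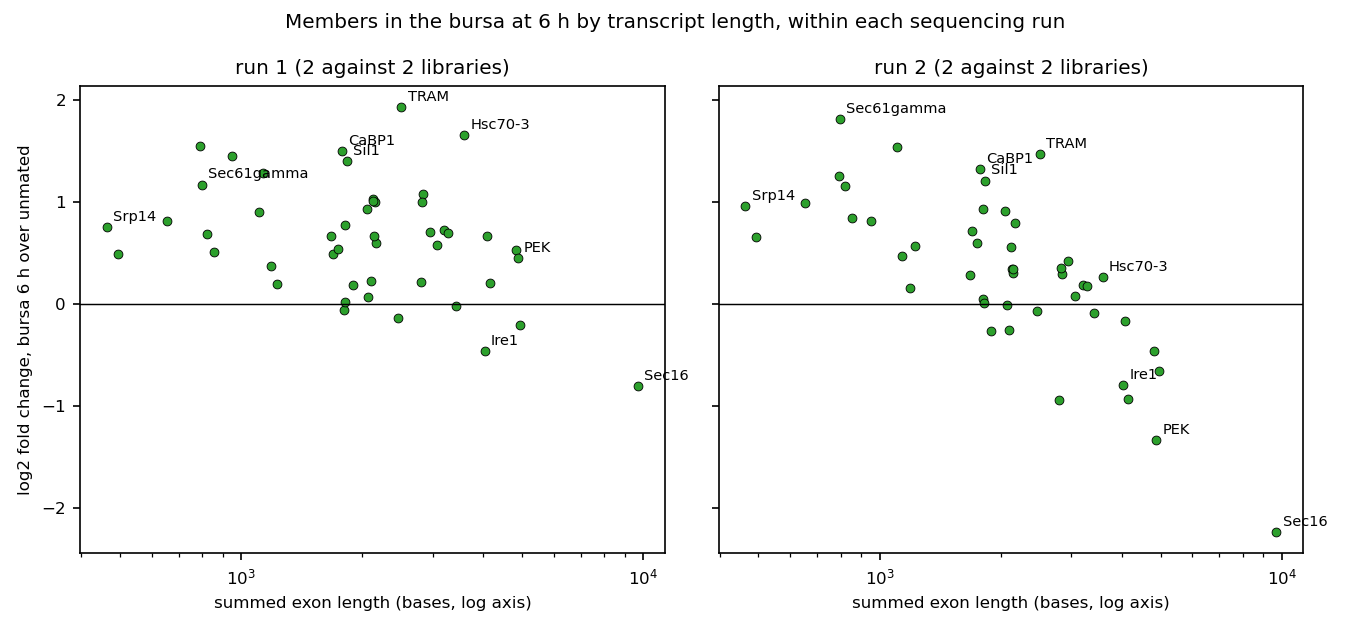
Log2 fold change of each of the 47 genes in the bursa at 6 h against unmated females, by exon length in bases (log axis), drawn for each sequencing run. Longer genes have lower values, more so in run 2 (Spearman -0.72) than in run 1 (-0.29).

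The oviduct had 2 libraries at 6 h, both from run 2. By the BH rule TRAM (1.24 ± 0.17) and CaBP1 (1.20 ± 0.20) rose and no gene fell (background 1.83% and 0.384%). TRAM had 83.0 and 72.2 CPM at 6 h, against 29.1, 35.1 and 36.6 CPM unmated. CaBP1 had 78.8 and 72.1 CPM at 6 h, against 37.1, 31.4 and 31.5 CPM unmated, and neither gene overlapped. For 33 members both 6 h libraries were above all 3 unmated ones (29.2% of all genes) and for 6 below (32.7%). At 24 h against 6 h, TRAM (-1.34), CaBP1 (-1.25) and Gp93 (-1.09) fell and none rose (0.896% and 0.243% of all genes). No member was called at 24 h against unmated females (background 0.154% and 0.0% by the BH rule), and 0 had an unadjusted p under 0.05. The eggshell markers summed to 741 CPM in 1 of the 2 oviduct libraries at 6 h and to 9.61 CPM in the other. In the unmated oviduct they summed to 2.27 to 6.99 CPM, and in unmated epithelia to at most 25.9 CPM. Their part in the oviduct values at 6 h was not tested.

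In the seminal receptacle CaBP1 and Sil1 rose at 6 h by the BH rule and no gene fell (background 0.626% and 0.332%). CaBP1 had 193, 247, 139 and 134 CPM at 6 h, against 65.5, 68.8 and 72.9 CPM unmated (1.38 ± 0.26, BH-adjusted p = 0.0489, edgeR). Sil1 had 9.81, 8.33, 9.41 and 9.07 CPM at 6 h, against 4.55, 4.30 and 3.87 CPM unmated (1.12 ± 0.22, BH-adjusted p = 0.0494). Neither gene overlapped between the groups. Both run 1 libraries of CaBP1 were above both of run 2 at 6 h. The fat body markers summed to 8252 to 44091 CPM in the receptacle at 6 h, against 19075 to 30581 CPM unmated. Their part in these rises was not tested. At 24 h no member was called against unmated females (background 0.0491% and 0.0% by the BH rule) or against 6 h (0.0% and 0.0246%) by either rule of edgeR. Of the 47 genes, 0 and 7 had an unadjusted p under 0.05, and DESeq2 called 0 and 1.

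The spermathecae had 3 rises at 6 h by the BH rule beside the fall of Efr (background 1.25% and 1.46%). Sec61gamma had 183, 189, 241 and 220.0 CPM at 6 h, against 72.2, 74.4, 76.3 and 70.9 CPM unmated (1.52 ± 0.23, BH-adjusted p = 0.00269, edgeR). Sec61beta had 549, 634, 588 and 564 CPM at 6 h, against 308, 379.9, 333 and 322 CPM unmated (0.81 ± 0.15, BH-adjusted p = 0.0114). Neither subunit of the channel overlapped between the groups. Sil1 was at 0.75 ± 0.17, with 19.9, 20.4, 12.9 and 15.6 CPM at 6 h, against 10.004, 8.24, 11.2 and 11.3 CPM unmated.

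At 24 h against 6 h, Sec61alpha (-1.34), Sec61gamma (-1.15), Sec61beta (-0.92) and Sil1 (-0.81) fell in the spermathecae and none rose (background 0.695% and 0.813%). With the replicate block, CaBP1 and SsRbeta fell besides these 4 (2.11% of all genes lower and 2.41% higher). Against unmated females Efr was the only member called by either rule at 24 h (0.184% of genes lower and 0.315% higher). CaBP1 differed between runs, with 580.4 and 822 CPM in run 1 and 255 and 312 CPM in run 2 at 6 h, against 262 and 307 CPM in run 1 and 253 and 226 CPM in run 2 unmated. The member median at 6 h was 0.35 in run 1 and -0.03 in run 2, so the pooled median of 0.24 did not hold in both.

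No member was called in the parovaria at 6 h or 24 h against unmated females by either rule (background of the BH rule at 6 h 0.44% and 0.0687%, at 24 h 0.0137% and 0.0%), with 12 and 5 members under an unadjusted p of 0.05. The median was 0.27 at 6 h, at 0.57 in run 1, which had 1 library at 6 h, and 0.10 in run 2. For 20 members every 6 h library was above every unmated one (14.6% of all genes) and for 2 below (10.1%). Sil1 had 14.3, 17.8 and 19.0 CPM at 6 h, against 11.4, 11.4, 9.83 and 9.51 CPM unmated, and CaBP1 had 575, 333 and 374 CPM, against 296, 259.8, 263 and 276 CPM. Neither gene overlapped, and neither passed the tests.

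CaBP1, Sil1 and TRAM came up in several tissues, and their side-by-side values at 6 h were as follows. CaBP1 rose by the BH rule in the bursa (1.36), oviduct (1.20), seminal receptacle (1.38) and fat body (2.17). Sil1 rose in the bursa (1.26), seminal receptacle (1.12), spermathecae (0.75) and fat body (3.26). TRAM rose in the bursa (1.63), oviduct (1.24) and fat body (1.31). For TRAM the change at 6 h was smaller in glands than in epithelia by -0.76 ± 0.20 (BH-adjusted p = 0.0144, edgeR), so its difference between glands and epithelia was narrower at 6 h than in unmated females. In that test TRAM and Efr were the members called by the BH rule, both lower (background 3.22% lower and 1.57% higher), and 0 were at the Bonferroni threshold (0.62% and 0.115%, 7 had an unadjusted p under 0.05, and DESeq2 called 1).

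At 6 h the median of the 47 genes was 0.77 in the fat body, 0.53 for bursa, 0.48 for oviduct, 0.27 in the parovaria, 0.24 in the spermathecae and 0.24 in the seminal receptacle. The medians over all genes lay between -0.038 and 0.051. Run 1 and run 2 differed, with 0.67 and 0.35 for bursa and 0.43 and 0.09 for seminal receptacle, beside those of the glands above. Against genes of like length they were 0.67, 0.50, 0.51, 0.26, 0.22 and 0.26 in the same order of tissues. At 24 h the medians were 0.21, 0.13, 0.10, 0.28, -0.14 and -0.15. At 6 h the 4 unfolded protein response genes had lower medians than the 47 in each tissue. These were 0.60 in the fat body, -0.14 for bursa, -0.19 for oviduct, -0.20 in the parovaria, -0.13 in the spermathecae and -0.15 in the seminal receptacle, without regard to gene length. PEK, Ire1 and crc have 4873, 4034 and 3423 exon bases. Against genes of like length the bursa values were 0.495 for Xbp1, 0.298 for PEK, 0.212 for crc and -0.257 for Ire1. In the fat body they were 0.0286, 0.799, -0.00678 and 0.561 in the same order. Of these 4 genes Ire1 in the bursa was the only call by either rule in any tissue and time.

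Other genes of the pathway lists were not called at the Bonferroni threshold after mating. By the BH rule in the bursa at 6 h, 4 of 7 p24 cargo receptors rose (opm highest at 1.04), 4 of 17 SNAREs, tethers and GTPases rose and 1 fell (membrin 1.26, Golgin245 -0.80), 3 of 7 stress sensors and targets rose with P58IPK at 0.98 and 1 fell, and 1 of 6 oligosaccharyltransferase genes and 1 of 9 degradation genes rose. Over all genes 13.9% rose and 11.5% fell there, so that the shares of the SNAREs, of the oligosaccharyltransferase and of degradation were near the background. The gene that fell among the stress targets was Thor, a translation repressor, which fell by 1.92 in the bursa at 6 h and was higher at 24 h than at 6 h by 1.75. Among the degradation genes, Edem2, a lectin that sorts misfolded glycoproteins, fell in the spermathecae by 1.04 at 6 h and by 1.02 at 24 h, and Der-1 rose there at 6 h (0.85). In the fat body at 6 h 2 of 16 SNAREs, tethers and GTPases rose, with garz, an activator of Arf GTPases, at 2.13 (background 1.57%).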

How the data were processed

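RNA from FRT tissues of LHM females was sequenced on a BGISEQ-500 as 50-base single reads. The authors aligned reads with HISAT2 2.1.0 to FlyBase release 6.21 and assembled and counted them with StringTie. The deposited table holds whole raw counts per gene, although its name says CPM, so no normalization of theirs is part of the values. Each column name matched the labels of 1 group, and in 6 groups (14 columns) the replicate number of the column differed from that of the sample title and only names the column. Libraries were biological replicates, each pooled over several collections of females.

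A gene was tested where 2 or more libraries of any group exceeded 2 CPM, with edgeR 4.0.16 (R 4.3.3), TMM scaling in each fit and no covariate, with DESeq2 1.42.0 as an alternative. SE is the log2 fold change divided by the square root of F. All 47 genes were tested in each of 23 comparisons. On simulated counts with 200 genes changed 4-fold, 100% were recovered for glands against epithelia (8452 genes) and 68% for the bursa at 6 h (7983 genes), with 0 false calls. The simulated counts held no effect of run or gene length and no smaller changes, so these figures do not cover such cases. Of 81 pairs of replicates 0 had identical counts. Gene lengths, positions and overlaps came from the Ensembl annotation of the release 6 assembly, and the strand setting of the counting is not given in the sources used here.

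The members and lists were chosen with earlier results of these data known. All members could be named, with values per library for the member with the smallest p of each class between glands and epithelia, for Hsc70-3, Xbp1, crc, PEK and Ire1, and for the called members of each tissue and time, up to 5 in each direction. ERp60, SsRbeta, Calr and the comparison of the seminal receptacle were brought in after values were seen. Same-numbered libraries deviated together at 24 h and 6 h (r of 0.188 to 0.767 in the bursa and 0.283 to 0.744 in the spermathecae, every pair over 0.1), which is taken as pairing for 24 h against 6 h although the labels do not give it. Pairs of the same run but other numbers had 0.167 to 0.665 and -0.226 to 0.627. In the bursa a shared number and a shared run thus cannot be told apart. Alternatives were another normalization, another test and adjustment, no filter, the sequencing run as a term or alone, the replicate block, libraries or tissues left out, and CPM on the total count. Marker lists without a value in the results were those of germline (4.04 to 18.2 CPM summed in unmated glands and 43.3 to 162 CPM in unmated epithelia), gut (1.71 to 291 and 1.44 to 7.23 CPM) and neurons (4.96 to 36.2 and 12.5 to 35.1 CPM).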

Additional observations from a re-analysis of the deposited data

Results flagged for a closer look

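In 7 of 120 groups of 4 libraries checked for the values above, 1 library lay far from the others, and chance gives about 1 in 20. Hsc70-3 was low at 29.7 CPM in 1 unmated bursa library, where the group median was 118 CPM, and at 313 CPM in 1 unmated spermathecae library, where it was 1194 CPM. Both are from run 1. Sec23 was low at 248 CPM in 1 unmated parovaria library (median 283 CPM). Spase18-21 was high at 116 CPM in 1 unmated fat body library (median 101 CPM). Among mated females, Xbp1 was low at 395 CPM in 1 seminal receptacle library at 6 h (median 471 CPM), crc at 443 CPM in 1 spermathecae library at 6 h (median 665 CPM), and Efr was high at 39.0 CPM in 1 spermathecae library at 24 h (median 26.9 CPM).

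By the test of the difference itself (edgeR), the change after mating was lower in glands than in epithelia for Efr at 6 h (-0.71) and 24 h (-0.63) and for TRAM at 6 h (-0.76). For Efr the spermathecae had -1.65 and -1.39 at the 2 times and the parovaria -0.11 and -0.20.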

How the results depend on the processing

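The number of members called between glands and epithelia was 36, and 23 with run 1 alone, 35 to 40 on leaving out a library. For spermathecae against parovaria it was 2, with 17 by BH adjustment, 1 without the filter, 3 with DESeq2, 0 with run 1 or run 2 alone and 0 to 2 on leaving out a library. For the seminal receptacle it was 7, with 27 by BH adjustment, 17 with DESeq2, 2 with run 2 and 5 to 9 on leaving out a library. Run 1 held 1 unmated receptacle library, so its count is left out too. The count of 0 at 6 h became 20 by BH adjustment, 6 with DESeq2 and 1 with the run as a term in the bursa, 2 and 3 by BH adjustment and DESeq2 in the oviduct, and 2 by each in the seminal receptacle. At 24 h against 6 h the counts of 0 became 11 and 1 by BH adjustment and DESeq2 in the bursa, 3 by each in the oviduct, 4 and 1 in the spermathecae, 1 with DESeq2 in the seminal receptacle and fat body, and 1 with the run as a term in the spermathecae. In the spermathecae the 1 call at 6 h became 4 by BH adjustment, 3 with DESeq2 and 0 in each run alone, and the 1 call at 24 h became 0 without the filter and in each run alone, and both had 0 to 1 on leaving out a library. In the fat body at 6 h the 1 call became 6 by BH adjustment, 5 with DESeq2, 2 with the run as a term and 0 to 2 on leaving out a library. Run 1 alone had 1 fat body library at 6 h, so its count of calls is left out. No share of all genes is given here for counts with a run alone or with the run as a term. The differences in change had 2 and 1 by BH adjustment and DESeq2 at 6 h and 1 by each at 24 h. The 1 fitted value that changed sign was crc between glands and epithelia, at -0.0674 without the parovaria. On CPM from total counts the log2 ratios of crc (-0.492), ERp60 (-0.345), Sec24AB (-0.129) and PEK (-0.126) also lay below 0. A lone library left in a group is assumed to vary like the other groups, and pseudocounts (the values were counts) and libraries left out of the differences in change were not run. DESeq2 size factors moved the members' median by at most 0.0506.

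Outside of 24 h against 6 h the libraries share only a number, with same-numbered pairs within tissues correlated at -0.245 to 0.583 and not all over 0.1. With the replicate block, with the bursa as the only epithelium, 35 members were called between glands and epithelia and 0 between spermathecae and parovaria. Against unmated females the block left 1 call at 6 h and 1 at 24 h in the spermathecae and 0 in the bursa, and at 24 h against 6 h it left 0 in both. The oviduct at 6 h and the fat body at 24 h had 2 libraries each, all from run 2.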
